A study of Homo sapiens with 5 samples.

Results

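The 9 genes SYT1, SYT4, SYT11, SNAP25, STX1A, VAMP2, SYP, SV2A and SYN1 encode proteins of the synaptic vesicle and of the SNARE machinery that fuses it with the plasma membrane. They were taken by symbol from the deposited tables, where all 9 had a value in each of 5 libraries, out of 26364 symbols. The libraries came from SH-SY5Y, a human neuroblastoma cell line of noradrenergic character used as a model of neuronal differentiation. The groups, each with 1 library, were siControl, siSTAU1 and siUPF1, titled for a control siRNA and for siRNAs aimed at STAU1 and UPF1, and Nondifferentiation and Differentiation. All 5 were grown with 10% serum and 1% antibiotics. Retinoic acid at 50 uM stands in the media label of Nondifferentiation as well as Differentiation, so that label does not separate the pair, and it stands in none of the siRNA labels. CYP26A1, the retinoic acid-degrading enzyme that retinoic acid induces, was listed at 0 in Nondifferentiation and at 14.38 in Differentiation. The siRNA sequences, treatment times and number of cultures behind each library were not stated in the labels.

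STAU1 binds double-stranded stretches of mRNA and recruits UPF1, and this route of mRNA breakdown is called Staufen-mediated decay. The design text asks which transcripts are higher after depletion of each factor and also in differentiation. In a neuron, a vesicle filled with transmitter docks when VAMP2 on its membrane zips together with STX1A and SNAP25 on the plasma membrane. SYT1 on the vesicle senses calcium and triggers fusion. SYP and SV2A are abundant membrane proteins of the same vesicle, and SYN1 ties vesicles to each other and to the cytoskeleton. SYT4 and SYT11 belong to the same family as SYT1, but their first calcium-binding domain differs from it and they are known for vesicle traffic outside fast release.

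The promoters are shown for the 3 genes with the largest folds in Differentiation that have an entry (SYT4, SYP and SYN1) and, for contrast, for SYT1, whose fold was the smallest. Each sequence is the 250 bases before the annotated start in RefSeq, build GRCh38.p14, written 5′ to 3′ on the gene's strand, and 8 of the 9 genes matched (all but SNAP25). Capitals mark exact matches, on either strand, to any of 6 motifs: the GC box, the cyclic AMP response element and its core, the core of retinoid receptor sites, the main part of the element bound by the neuronal repressor REST, and the TATA box.
SYT4, chr18:43277491-43277740, minus strand: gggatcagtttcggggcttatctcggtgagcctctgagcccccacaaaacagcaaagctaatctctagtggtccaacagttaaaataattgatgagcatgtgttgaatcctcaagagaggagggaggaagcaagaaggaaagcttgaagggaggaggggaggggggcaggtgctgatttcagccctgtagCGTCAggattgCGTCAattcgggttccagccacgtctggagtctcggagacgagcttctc
SYP, chrX:49200194-49200443, minus strand: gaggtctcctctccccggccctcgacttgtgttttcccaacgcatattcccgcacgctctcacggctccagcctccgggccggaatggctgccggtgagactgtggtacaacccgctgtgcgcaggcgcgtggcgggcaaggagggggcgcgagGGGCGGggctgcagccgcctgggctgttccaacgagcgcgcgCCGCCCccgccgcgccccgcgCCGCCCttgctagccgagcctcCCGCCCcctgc
SYN1, chrX:47619858-47620107, minus strand: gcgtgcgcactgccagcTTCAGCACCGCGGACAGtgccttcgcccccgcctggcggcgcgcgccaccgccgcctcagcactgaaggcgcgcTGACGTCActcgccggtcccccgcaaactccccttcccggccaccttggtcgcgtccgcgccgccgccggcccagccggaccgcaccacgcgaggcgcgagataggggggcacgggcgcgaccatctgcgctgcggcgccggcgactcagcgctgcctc
SYT1, chr12:78864524-78864773, plus strand: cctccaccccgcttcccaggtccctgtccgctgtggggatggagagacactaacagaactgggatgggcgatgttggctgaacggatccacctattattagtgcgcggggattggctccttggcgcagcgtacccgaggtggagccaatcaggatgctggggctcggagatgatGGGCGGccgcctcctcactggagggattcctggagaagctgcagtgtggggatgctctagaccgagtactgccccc
These promoters had little in common in the searched letters. SYN1 held an exact match to the searched REST letters, as did 0.011% of 27305 promoter windows of the same length. That share reflects a strict search over 17 letters. REST sites with a mismatch or outside the window were not sought in any gene. SYN1 also held the full cyclic AMP response element TGACGTCA, which 1.77% of the windows held. SYT4 held the core of that element, the letters TGACG that the full element contains, 2 times, at 60 and 49 bases before the start, and no GC box. The same 5 letters were in SYT11, VAMP2 and SYN1, and in 21.7% of all windows. GC boxes, spelled GGGCGG, were in SYT1, STX1A, VAMP2 and SYP, with 7 in STX1A and 4 each in VAMP2 and SYP, against 42.3% of all windows with at least 1. The retinoid core AGGTCA was in 12.1% of all windows and in 0 of the 8. The TATA box, spelled TATAAA, was in 11.1% of all windows and in 0 of the 8. The match is a description of these letters only, and no binding was measured.

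Depth, inferred from the steps between low values, ran from about 16600000 reads in siControl to about 27000000 in Differentiation. The libraries carried their labels in the targeted mRNAs: STAU1 stood at 11.34 in siSTAU1 and between 12.86 and 12.89 in the other four, and UPF1 at 9.20 in siUPF1 and between 10.62 and 10.74 elsewhere. Of 9 noradrenergic markers 0 were listed at 0 in any library. Of 10 glial markers, 4 (SOX10, ALDH1L1, OLIG1 and OLIG2) were listed at 0 in all 5 libraries, and 5 in each single library. No group was replicated, so no p-value is given, and intervals cover counting error only. As bulk values, fewer cells with a transcript and less transcript per cell cannot be told apart.

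The 9 genes covered a wide range of levels, with the same genes at the top and bottom of the order in every library. The library kit reads the 3′ end of each polyadenylated RNA, so values do not scale with transcript length and levels of different genes can be set side by side as deposited log2 values. SYT1, SYT11 and SV2A were the 3 highest in all 5 libraries. SYT1 alone made up between 51.2% and 60.7% of the summed linear values of the 9. SYP was the lowest in all 5, with about 14 to 27 reads in the 4 libraries other than Differentiation. The 9 together took 0.0558% of all linear values in Nondifferentiation and 0.0851% in Differentiation, and between 0.0390% and 0.0452% in the 3 siRNA libraries.

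**Figure D1:**
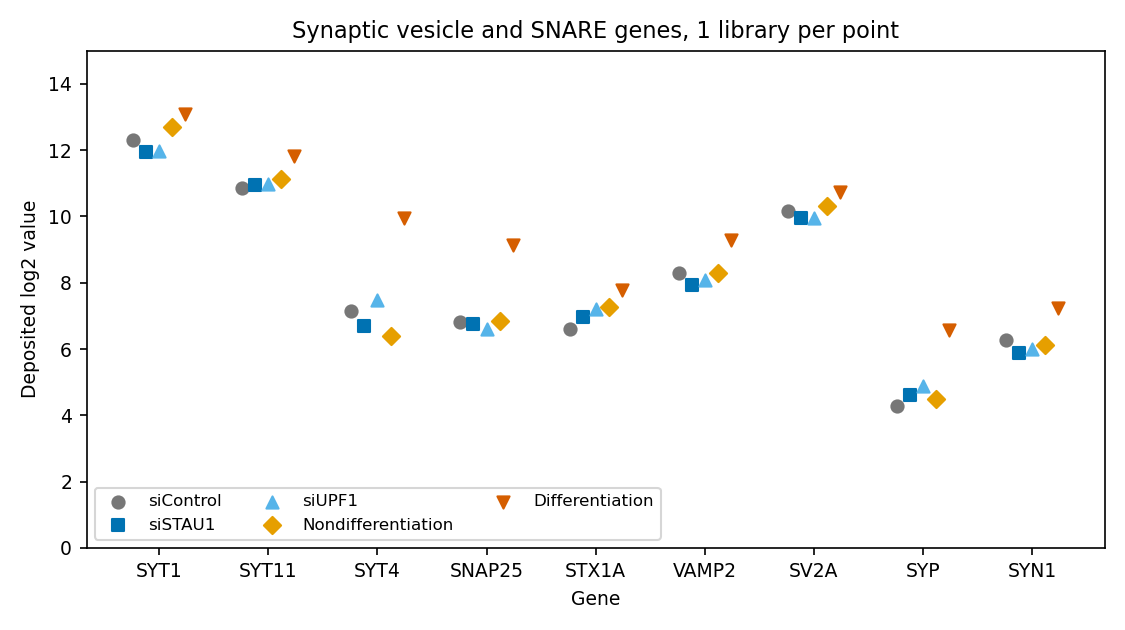
Deposited log2 value (vertical axis) of each of the 9 genes (horizontal axis) in the 5 libraries, 1 point per library. The Differentiation point is the highest for each gene, from 0.39 above the next library for SYT1 to 2.48 above it for SYT4.

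All 9 genes had their highest value in Differentiation. Against Nondifferentiation, SYT4, SNAP25, SYP and SYN1 were more than 2-fold higher, and VAMP2 lay at the threshold. Among the genes nonzero in both libraries 14% were at least 2-fold higher, and among the genes above the low-value floor (the larger value at or above 7.76) 10.4% were. The median log2 fold of the 9 was 0.99, where that of the 9064 genes above the floor was 0.02. Only 4 of the 9 lay above that floor in both libraries. SYT4, SNAP25 and STX1A passed it through their Differentiation value, and SYP and SYN1 did not pass it. Across the 7311 genes above the pooled floor of 7.81 in every library, 39.6% had their highest value in Differentiation, so a high value there is common in that set. Of the 9, only SYT1, SYT11, VAMP2 and SV2A belong to it. The share among genes with lower values, like the rest of the 9, was not computed.

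Among the calcium sensors, SYT4 had the largest fold and SYT1 the smallest. SYT4 stood at 7.16 in siControl, at 6.69 and 7.48 in siSTAU1 and siUPF1, at 6.38 in Nondifferentiation and at 9.96 in Differentiation. Its Differentiation value was far above a group of 4 values that themselves spread over 1.10. The log2 fold against Nondifferentiation was 3.58 (95% counting interval 3.25 to 3.90), an 11.9-fold difference, from about 79 to about 1374 reads. SYT4 went from the 37.2 percentile of nonzero genes in Nondifferentiation to the 77.8 percentile in Differentiation, while in the summed value of the 9 its share went from 0.764% to 5.98%. SYT11, its closest relative in the family, stood at 10.87, 10.96, 10.99, 11.13 and 11.82 in the same order of libraries. The 4 libraries other than Differentiation lay within 0.26 of each other, and the log2 fold was 0.69 (0.62 to 0.77). SYT1, the fast calcium sensor, stood at 12.30, 11.95, 11.97, 12.69 and 13.08. Its log2 fold of 0.39 (0.34 to 0.43) was precise in reads but smaller than the spread of 0.74 between the 4 other libraries.

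The 3 SNARE genes differed from each other. SNAP25, which supplies a pair of helices to the SNARE bundle, stood at 6.81 in siControl, at 6.74 and 6.61 in siSTAU1 and siUPF1, at 6.84 in Nondifferentiation and at 9.13 in Differentiation. The first 4 values lay within 0.23, and Differentiation stood apart from them, with a log2 fold of 2.29 (counting SE 0.15), or 4.88-fold, against Nondifferentiation. VAMP2, the vesicle SNARE, stood at 8.28, 7.94, 8.07, 8.29 and 9.28 in the same order. Its log2 fold was 0.99 (0.80 to 1.18), a 1.99-fold difference, so the interval spans the 2-fold threshold. STX1A, the plasma membrane syntaxin, stood at 6.61, 6.96, 7.22, 7.28 and 7.78. Its log2 fold of 0.50 (0.22 to 0.78) was smaller than the spread of 0.67 between the 4 other libraries.

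Of the vesicle membrane and tethering genes, SYP had the largest fold and the fewest reads. SYP stood at 4.29 in siControl, at 4.60 and 4.90 in siSTAU1 and siUPF1, at 4.50 in Nondifferentiation and at 6.58 in Differentiation. The log2 fold was 2.08, and its interval of 1.42 to 2.74 is wide because Nondifferentiation had about 21 reads. SYN1 stood at 6.27, 5.89, 5.99, 6.12 and 7.23, a log2 fold of 1.11 (0.72 to 1.51). SV2A, the binding partner of the drug levetiracetam, stood at 10.17, 9.96, 9.96, 10.32 and 10.72, a log2 fold of 0.40 (0.30 to 0.50). For 7 of the 9 genes the gap between Differentiation and the next highest library was larger than the spread of the other 4 libraries, and the 2 exceptions were SYT1 and STX1A. Those 4 libraries differ in treatment, so their spread is not a replicate error. SV2A passed narrowly, with a gap of 0.40 beside a spread of 0.36. The share of all genes with such a gap was not computed, so the count has no background.

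With siControl in place of Nondifferentiation as the reference, the 9 genes were again all higher in Differentiation. SYT4 had 2.80, SNAP25 2.32, SYP 2.29 and VAMP2 1.01. STX1A then had 1.16, while SYN1 had 0.97 and did not reach 2-fold. Markers of cell state also differed between Differentiation and Nondifferentiation. Of 9 noradrenergic markers, 8 lay above the floor, with 1 at least 2-fold higher and 3 at least 2-fold lower, and the list's summed value was 0.184% of the library against 0.252%. The 10 mesenchymal markers were mixed. Of the 5 above the floor, 2 were at least 2-fold higher (FN1, 16.63 against 15.45, and COL3A1, 11.66 against 9.21) and 2 at least 2-fold lower (VIM, 11.27 against 12.52, and TAGLN, 6.47 against 8.13), with a median log2 fold of -0.34. Their sum, in which FN1 has the highest value, was 0.551% against 0.267% of the library. Of 10 epithelial markers, 8 had a value other than 0 in Differentiation against 5 in Nondifferentiation, with KRT8 at 4.58 against 2.14 and ESR1 at 3.41 against 0. CLDN7, the 1 marker above the floor, was lower, with a log2 fold of -0.57. The sum of the 10 was 0.00255% against 0.00305%. Differentiation was the deeper library, with about 27000000 reads against about 18800000 in Nondifferentiation. The part of depth in the count of nonzero markers was not tested. The glial list, with 0 of 10 above the floor, stayed at or below 0.000709% in every library. The part of these shifts in the values of the 9 genes was not tested.

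**Figure D2:**
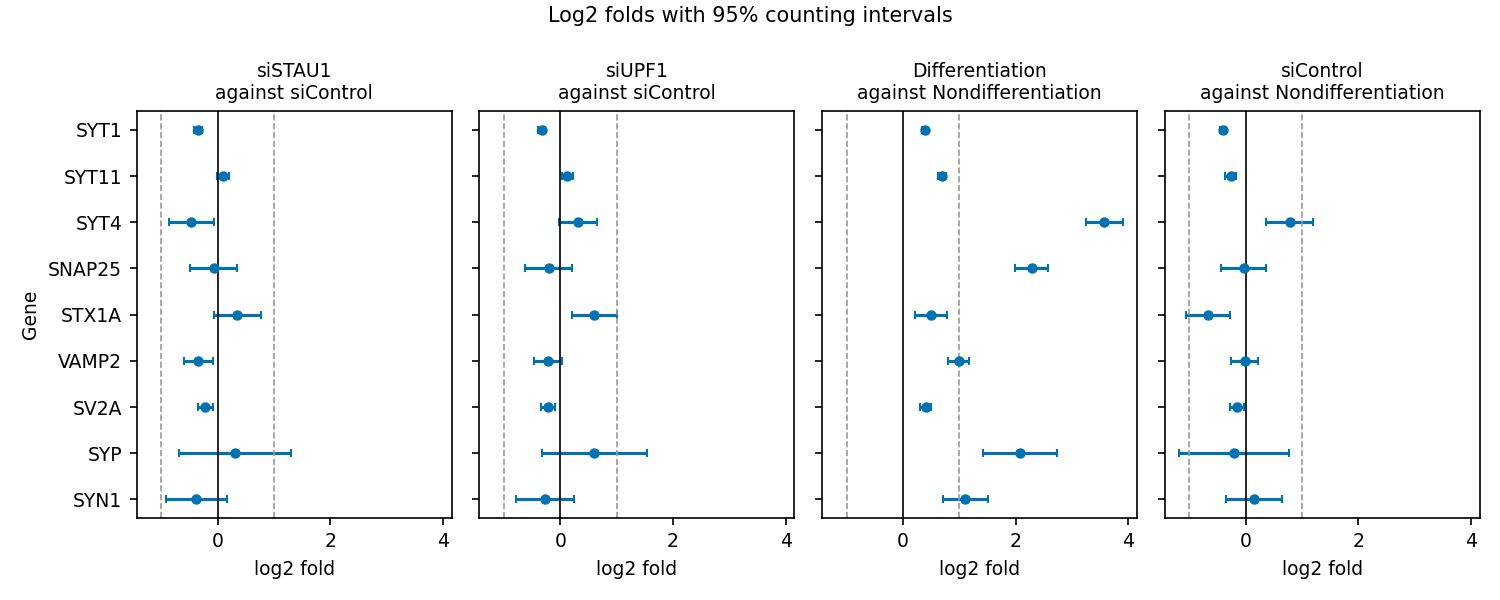
Log2 fold (horizontal axis) of each of the 9 genes (vertical axis) in 4 comparisons, with bars for the 95% counting interval and dashed lines at 2-fold. In Differentiation against Nondifferentiation all points lie to the right of 0, from 0.39 to 3.58, and in the other comparisons they lie between -0.67 and 0.78.

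After STAU1 depletion 0 of the 9 genes differed by 2-fold from siControl, beside 0.201% of all genes above the floor in either direction and 9.19% of genes nonzero in both libraries. Only 4 of the 9 (SYT1, SYT11, VAMP2 and SV2A) lay above the floor of this pair, 7.84. Folds of the 9 ran from -0.47 for SYT4 to 0.35 for STX1A, with a median of -0.22. The 4 above the floor had a median of -0.28, where that of all genes above it was 0.01. SYT1 had -0.35 (-0.41 to -0.28), VAMP2 -0.34 (-0.60 to -0.08), SV2A -0.22 (-0.35 to -0.09) and SYN1 -0.38 (-0.92 to 0.16). SYT11 had 0.10, SNAP25 -0.07 and SYP 0.30, each with an interval that holds 0. Of 10 epithelial markers, 8 had a value other than 0 in siSTAU1 against 5 in siControl, and their sum was 0.00565% against 0.00326% of the library. KRT8 stood at 7.53 against 2.49, KRT18 at 7.56 against 2.49, CDH1 at 5.21 against 0, ESR1 at 5.71 against 0 and CLDN4 at 3.17 against 0. KRT5 and KRT14 were listed at 0 in all 5 libraries, and CLDN7, the 1 marker above the floor, had -0.20. Of 10 mesenchymal markers, 4 lay above the floor and 1, TAGLN, was past 2-fold at -1.63. The part of these markers in the values of the 9 genes was not tested.

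After UPF1 depletion 0 of the 9 differed by 2-fold from siControl either, beside 0.543% of all genes above the floor and 9.84% of those nonzero in both libraries. STX1A had 0.60 (0.21 to 1.00) and SYP 0.60 (-0.33 to 1.54), the highest of the 9, each 1.52-fold higher. SYT4 had 0.32 (-0.02 to 0.66) and SYT11 0.13 (0.03 to 0.22). SYT1 had -0.33 (-0.39 to -0.27), SV2A -0.22 (-0.34 to -0.09), VAMP2 -0.21 (-0.46 to 0.04), SNAP25 -0.20 (-0.62 to 0.22) and SYN1 -0.28 (-0.79 to 0.24). The median of the 9 was -0.20. Only 4 of them (SYT1, SYT11, VAMP2 and SV2A) lay above the floor. Those 4 had a median of -0.21, where that of all genes above the floor was -0.01. Both knockdown comparisons share the siControl library, so the lower values of SYT1, SV2A and VAMP2 in both are not independent of each other. Markers moved here too: 7 of 10 epithelial markers had a value other than 0 against 5 in siControl. ESR1 stood at 4.74 against 0, and KRT8 at 4.23 and KRT18 at 4.74, each against 2.49. EPCAM was lower, at 0.26 against 2.49, and CLDN7, the 1 above the floor, had -0.25. The sum of the 10 was 0.00324% against 0.00326%. Of 10 mesenchymal markers, 5 lay above the floor, with a median log2 fold of 0.31, and TAGLN was past 2-fold at 1.52. Their part in the values of the 9 genes was not tested.

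The 2 libraries without knockdown or differentiation, siControl and Nondifferentiation, differed in these genes by folds of similar size to those after knockdown. STX1A had -0.67 (-1.06 to -0.27) and SYT4 0.78 (0.37 to 1.19) in siControl against Nondifferentiation, and SYT1 had -0.39 (-0.45 to -0.34). None of the 9 reached 2-fold there, beside 0.796% of genes above the floor and 9.83% of those nonzero in both libraries. Only 4 of the 9 lay above that floor. Set against Nondifferentiation, STX1A had -0.32 in siSTAU1 and -0.06 in siUPF1, and so turned sign in both. SYT4 turned to 0.31 in siSTAU1 and had 1.10 in siUPF1, which is past 2-fold but from values below the floor. SYT11 turned to -0.17 and -0.14. SYT1 had -0.74 in siSTAU1 and -0.72 in siUPF1, on the same side with either reference. So for these genes the direction after STAU1 depletion depended on the reference library for SYT4, SYT11 and STX1A, and after UPF1 depletion for SYT11 and STX1A. Markers differed between the 2 reference libraries as well. Of 9 noradrenergic markers, 7 lay above the floor and 2 were at least 2-fold lower in siControl. These were TH, at 6.69 against 8.82, and DBH, at 10.79 against 11.91. The list's summed value was 0.247% against 0.252% of the library. Their part in the values of the 9 genes was not tested.

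Each gene was also set against a close relative within the same library. The pairs were chosen after their values were seen. SNAP23, the widely expressed relative of SNAP25, was between 2.78- and 4.48-fold higher than SNAP25 in the 4 libraries other than Differentiation. In Differentiation the order was the reverse, with SNAP25 2.31-fold higher than SNAP23, as SNAP25 was higher by 2.29 and SNAP23 had a log2 fold of -0.71. SYN1 minus SYN2 was -2.06 on the log2 scale in Nondifferentiation and -0.13 in Differentiation, where SYN2 had a log2 fold of -0.81. VAMP2 was higher than VAMP3, the SNARE of recycling vesicles in most cells, in all 5 libraries, by 1.31- to 1.98-fold outside Differentiation and 2.90-fold in it. STX1A was lower than STX3 in all 5, with a log2 difference of -2.45 in Nondifferentiation and -0.85 in Differentiation. It was -2.14 in siControl, -2.04 in siSTAU1 and -1.44 in siUPF1. Against STX4, a syntaxin of constitutive secretion, the difference was -3.05 in Nondifferentiation and -3.14 in Differentiation, so it was nearly equal in both. SYP stayed far below its widely expressed relative SYPL1, at -5.04 in Nondifferentiation and -3.10 in Differentiation. SYT4 minus SYT11 was -4.75 in Nondifferentiation and -1.87 in Differentiation.

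**Figure D3:**
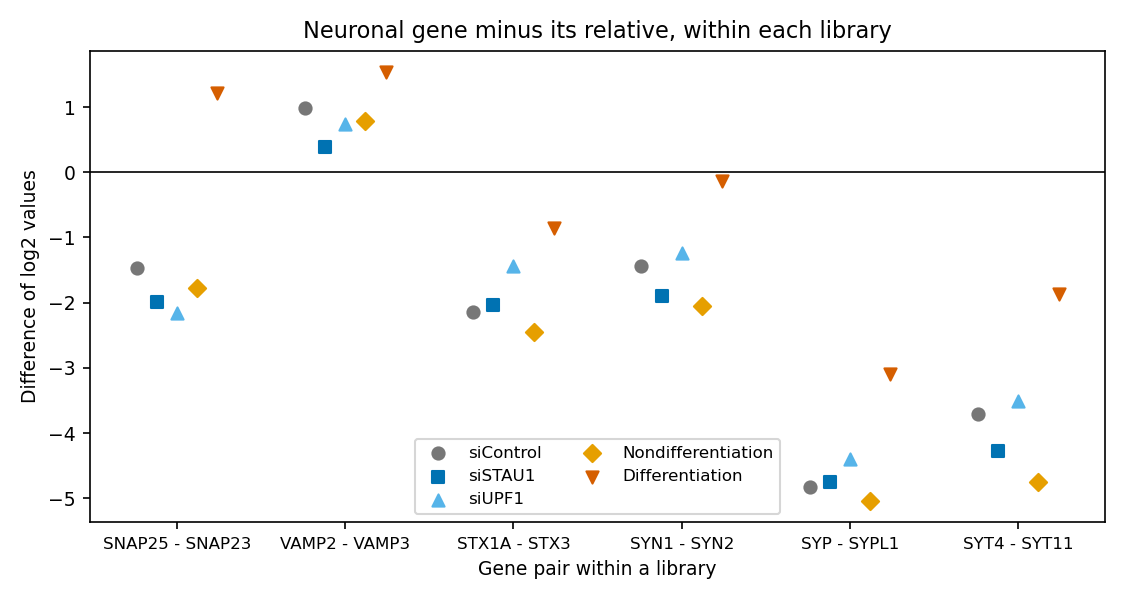
Difference of the deposited log2 values of 2 related genes within the same library (vertical axis), for 6 gene pairs (horizontal axis), 1 point per library. The Differentiation point is the highest in each pair, and for SNAP25 against SNAP23 it is the only one above 0, at 1.21 against -1.78 in Nondifferentiation.

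The wider release machinery was followed in 9 lists of 137 other genes. Of the 71 above the floor in Differentiation against Nondifferentiation, 7 were at least 2-fold higher (9.86%) and 3 at least 2-fold lower (4.23%), beside 10.4% and 10.9% of all genes above the floor. Of these, 4 of the 7 higher (SYT14, SYT9, RAB3B and DNM3) passed the floor through Differentiation alone, and 2 of the 3 lower (RIMS3 and PPFIA4) through Nondifferentiation alone. Set against siControl instead, SYT9 (7.95 against 7.31), STX3 (8.63 against 8.75) and PPFIA4 (6.73 against 7.15) did not reach 2-fold in Differentiation. RABAC1 (9.28 against 7.88), RIMS2 (8.49 against 7.21), RAB27A (8.68 against 7.61) and ITSN1 (8.53 against 9.65) then did. The median log2 fold of the 71 was 0.28, against 0.02 for all genes above the floor. Among other synaptotagmins and calcium sensors, 5 of 20 lay above the floor and 2 were higher: SYT14, with 8.97 against 6.49 and a log2 fold of 2.48, and SYT9, with 7.95 against 6.71 and 1.23. None of the 5 was 2-fold lower, and DOC2A, the highest of this list, had 12.11 against 12.62. Below the floor folds went both ways, such as SYT2 at -1.72 and SYT17 at 1.61. Among other plasma membrane and vesicle SNAREs, 8 of 12 lay above the floor and STX3, a syntaxin of epithelia and ribbon synapses, was the 1 past 2-fold, at -1.11. Of the 19 SNAREs of the endosome and Golgi, 12 lay above the floor, 0 passed 2-fold and the median was 0.04.

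SNARE regulators included 2 genes that were higher in Differentiation among 9 of 19 above the floor. PRRT2, a presynaptic protein that binds SNAP25, had 12.21 against 10.80, a log2 fold of 1.42. NAPB, the brain form of the adaptor that brings NSF to used SNARE complexes, had 10.27 against 9.07, a log2 fold of 1.20. NSF itself had 9.11 in both. Of the tethering GTPases and other synapsins, 7 of 11 lay above the floor, and RAB3B, a vesicle GTPase, was higher at 1.12. In the active zone list, 10 of 14 lay above the floor. PCLO, a scaffold of the release site, was higher at 1.19, while RIMS3 had -1.74 and PPFIA4 -1.15. Of 21 endocytosis genes, 16 lay above the floor and DNM3, a dynamin, was higher at 1.13. Below the floor, genes of these lists also passed 2-fold in both directions. RAB3A had -1.42, RIMS1 -1.21 and STON2 -1.11, while BSN had 2.18 and PPFIA3 1.49. Of 13 other vesicle membrane genes, the 4 above the floor did not pass 2-fold. Among those below it, SYNGR1 had 1.01, SYNGR3 1.20 and SV2C 1.26. SVOP stood at 2.58 against 0.26, and TMEM163 was listed at 0 against 1.77. Both lay far below SYP, the lowest of the 9, so no fold is read from them. For the vesicle transmitter transporters, 0 of 8 lay above the floor. After siSTAU1 0 of 61 genes of these lists passed 2-fold, and after siUPF1 1 of 63 did: the active zone scaffold PPFIA2 had -1.26. Set against Nondifferentiation, PPFIA2 in siUPF1 had -0.66 and did not pass. In siControl against Nondifferentiation 1 of 65 passed as well, the active zone gene RIMS2 at -1.23.

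**Figure D4:**
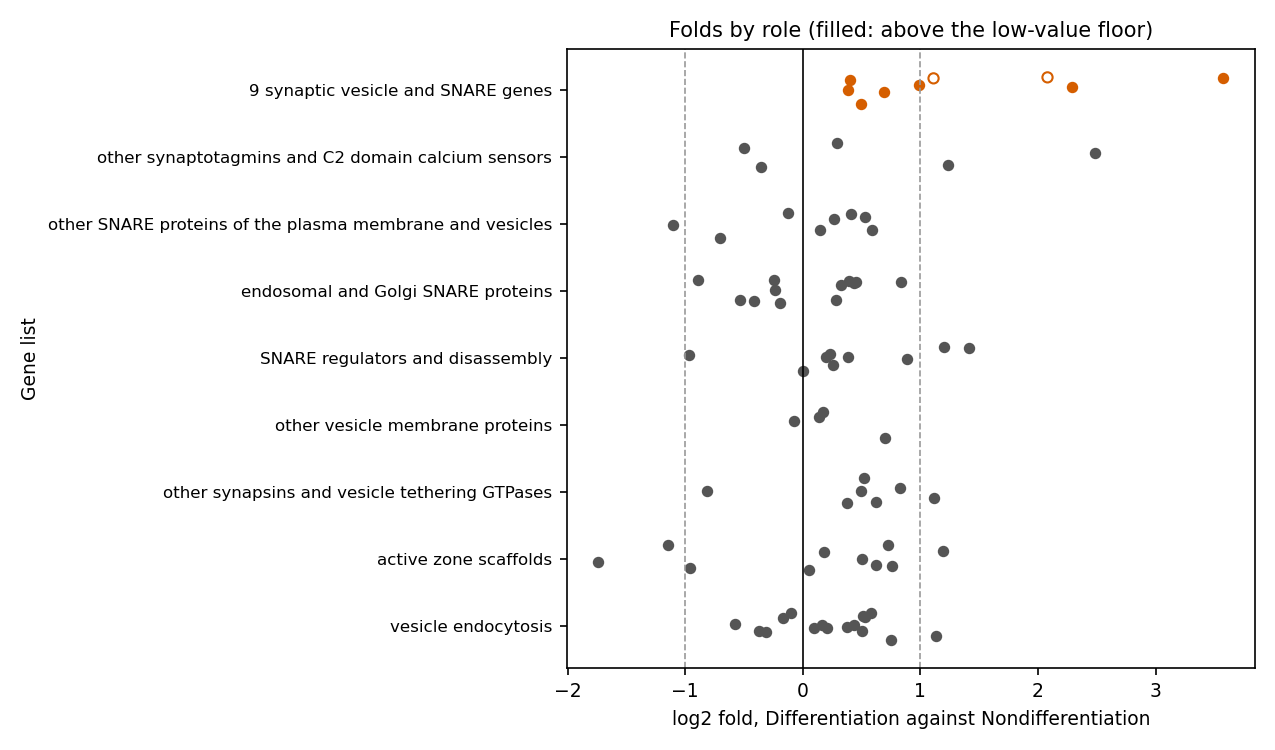
Log2 fold in Differentiation against Nondifferentiation (horizontal axis) by gene list (vertical axis), 1 point per gene, with filled points above the low-value floor, open points for SYP and SYN1 below it, dashed lines at 2-fold and vertical scatter for legibility only (the transmitter transporters, with 0 of 8 above the floor, are not drawn). Genes of the other lists below the floor are not drawn. The 9 genes lie between 0.39 and 3.58, and each of the other lists drawn has points on both sides of 0.

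For each of the 9 genes, the genes with the most similar pattern were sought among those above the floor in all 5 libraries. Likeness was the Euclidean distance between the 5 log2 values after each gene's mean was removed. SYT4 lay closest to PLEKHA6, at a distance of 0.34, and next to NAV2, at 0.53, which stood at 10.69 in Nondifferentiation and 14.46 in Differentiation. SNAP25 lay closest to ARHGEF3, at 0.23, and SYP to TPST1, at 0.18. VAMP2 lay closest to RORA, at 0.06, and STX1A to ZDHHC8, at 0.13. SYT11 lay closest to HECTD4, at 0.06, and SV2A to TRAF3IP2, at 0.04. SYT1 was nearest to PDIA3P1, at 0.14, and next to ELAVL3, at 0.17. SYN1 was nearest to MTRNR2L2, at 0.07, a gene with near-identical copies whose own value is uncertain. With 5 libraries, many genes share such patterns.

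Neighbouring genes limit some values, because the sources used here do not state whether counting used strand. In GENCODE 29 the 3′ end of STX1A lies inside BUD23 on the other strand, which stood in the files under its older symbol WBSCR22 between 11.18 and 11.74, well above STX1A. WBSCR22 had its lowest value in Differentiation, where STX1A had its highest. The 3′ end of SYN1 lies inside ARAF on the other strand, which stood at 8.03 in Nondifferentiation and 8.23 in Differentiation, above SYN1 in both. TIMP1, which lies within SYN1, stood at 7.11 and 7.76. SNAP25-AS1, which covers the 3′ end of SNAP25, was listed at 0 in both. GENCODE 29 also places AC129492.3, a protein-coding gene on the same strand, over the 3′ end of VAMP2, where strand could not separate the reads, and AC027288.3, on the other strand, over that of SYT1. Neither has a value under that name in the tables used here. Whether reads of these neighbours entered the values was not tested.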

How the data were processed

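Total RNA (500 ng, Trizol) was made into libraries with the Lexogen QuantSeq kit, per the labels' protocols. The authors deposited 1 log2 value per gene symbol and library. Per the submitters' processing notes, Bowtie2, edgeR and the build hg19 were used; their roles, versions and the annotation are not stated there. The deposited values had the same highest value, 18.01, and nearly the same upper quartile, 8.63 to 8.64, in all 5 libraries, a pattern of quantile normalization inferred from the values. Such scaling removes differences in total RNA.

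Log2 folds were differences of deposited values in 4 comparisons, without a test. The floor was the median of all nonzero values of a pair, applied to the larger value. Reads were estimated by taking the 400 lowest distinct values of a library as read counts in order and scaling above them, and 95% counting intervals follow from these. The calculation was also run on simulated counts with far fewer changed genes than the Differentiation pair. That run checks the arithmetic only, and its outcome is not used here. Python 3.11.15, numpy 2.4.6, pandas 2.3.3 and matplotlib 3.10.9 were used.

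All 9 genes are named. Of the other lists at most 3 genes above the floor and past 2-fold per list and direction are named. Exceptions, named after their values were seen, are SNAP23, SYN2, VAMP3, STX4, SYPL1, DOC2A, NSF, CYP26A1, marker genes and neighbouring genes. SYNGR1, SYNGR3, SV2C, SVOP, TMEM163, RABAC1, RAB27A and ITSN1 were also named in this way. So were SYT2, SYT17, RAB3A, RIMS1, STON2, BSN and PPFIA3. Likeness names the 2 nearest genes per member. The genes and lists were chosen with earlier results of these data known. Alternatives were the floor, the threshold, a pseudocount of 8, recentring, the reference library and, added after seeing the data, estimated reads and the genes above the floor only.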

Additional observations from a re-analysis of the deposited data

How the results depend on the processing

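No paired analysis was possible because each group had 1 library, and no library could be left out for the same reason. The median log2 fold of the 9 genes in Differentiation against Nondifferentiation, 0.99, was 0.55 over those above the upper-quartile floor and 0.69 over those above the floor. Of the 9, 2 were above the floor and past 2-fold in that pair, and 4 were without a floor, 1 was with the upper-quartile floor and 4 were at a 1.5-fold threshold. In the other 3 comparisons that count was 0 under each of these settings, and the median ran from -0.28 to -0.22 in siSTAU1, from -0.22 to -0.14 in siUPF1 and from -0.26 to -0.15 in siControl against Nondifferentiation. Counts over all genes moved most. Past 2-fold with no floor were 2651 genes in siSTAU1, 2698 in siUPF1, 6272 in Differentiation and 2688 in siControl against Nondifferentiation. With the upper-quartile floor these were 3, 12, 1000 and 22, and at 1.5-fold 195, 386, 3947 and 467, where the reported counts were 17, 46, 1935 and 68. With Nondifferentiation as the reference siSTAU1 had 78 and siUPF1 117. Single folds of the 9 genes kept their sign and stayed within their counting interval under the pseudocount, the recentring and the estimated reads (36 folds each). With Nondifferentiation as the reference, 5 of 18 knockdown folds changed sign and 10 moved by more than that interval. With siControl as the reference 5 of 9 Differentiation folds moved so, with 0 changes of sign. Depth limits SYP most, since its folds rest on about 14 to 27 reads outside Differentiation.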
